A study of Mus musculus with 10 samples.

Results

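The vascular endothelial growth factor (VEGF) family was examined gene by gene in cardiac endothelial cells of mice on a control or a ketogenic diet. The 10 genes were taken by name, as the family's ligands, receptors and neuropilins, from the 46983 genes of the deposited count table, and all 10 were found there. They are the ligand genes Vegfa, Vegfb, Vegfc, Vegfd and Pgf, the receptor genes Flt1, Kdr and Flt4, and the co-receptor genes Nrp1 and Nrp2.

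Male wild-type C57BL/6J mice, 8 weeks old at the start, were fed for 14 days either a control diet with 11.6% of its energy as fat (5 mice) or a ketogenic diet with 89.5% of its energy as fat and almost no carbohydrate (5 mice). During the first days both groups also had access to standard chow, and the study describes the control animals as littermates. Hearts were digested with enzymes, CD31+ cells were captured on magnetic beads, and polyadenylated RNA was sequenced as single reads of 50 bases. The question of the comparison is which transcripts of cardiac endothelial cells differ once ketone bodies in blood are raised by the diet.

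VEGF ligands are secreted dimers that act on endothelial cells through receptor tyrosine kinases and drive the growth, survival and permeability of blood and lymphatic vessels. VEGF-A binds FLT1 (VEGFR1) and KDR (VEGFR2). KDR carries most of the mitogenic signal, whereas FLT1 binds the ligand tightly, has a weak kinase and also exists as a soluble decoy. VEGF-B and placental growth factor bind FLT1, and VEGF-C and VEGF-D act mainly through FLT4 (VEGFR3), the receptor that lymphatic endothelium depends on. The neuropilins have short cytoplasmic tails and serve as co-receptors for VEGF ligands and for class 3 semaphorins.

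Kdr and Flt1, whose read ratio is compared between the diets below, are both on mouse chromosome 5 and are both transcribed from the minus strand. They lie at chr5:75932827-75978458 (Kdr) and chr5:147561604-147726011 (Flt1) in GENCODE M21 on GRCm38. Their RefSeq promoters, 250 bases before the annotated start on GRCm38.p6, are shown because both genes are known to be bound in endothelial cells by ETS factors, whose core motif GGAA (TTCC on the other strand) is in capitals. The windows are chr5:75978456-75978705 for Kdr and chr5:147726012-147726261 for Flt1, read 5′ to 3′ on the minus strand.
Kdr: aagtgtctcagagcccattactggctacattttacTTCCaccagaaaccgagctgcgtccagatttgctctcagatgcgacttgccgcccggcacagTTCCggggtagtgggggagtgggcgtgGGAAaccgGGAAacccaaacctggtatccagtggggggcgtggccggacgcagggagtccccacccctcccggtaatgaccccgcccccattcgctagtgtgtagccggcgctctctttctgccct
Flt1: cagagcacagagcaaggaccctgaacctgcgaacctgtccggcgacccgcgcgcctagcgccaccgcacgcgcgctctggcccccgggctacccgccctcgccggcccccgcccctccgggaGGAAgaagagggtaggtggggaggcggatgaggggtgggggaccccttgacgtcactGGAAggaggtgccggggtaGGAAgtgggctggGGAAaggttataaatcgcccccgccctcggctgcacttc
Each window held 4 copies of GGAA or TTCC, where the median over 32851 mouse promoters of the same length was 3 and 93.4% held at least 1, so the motif does not set this pair apart. The hypoxia element core ACGTG, searched on both strands, was in neither window and in 16.6% of all promoters. The GC box GGGCGG, also searched on both strands, was found 2 times for Kdr and 3 times for Flt1, and in 32.7% of all promoters. These are matches of letters only.

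Gene-assigned reads totalled 10885154 to 12710861 per mouse, and these totals did not differ between the diets beyond their spread (exact permutation test, two-sided, p = 0.230). The 8 endothelial markers, Cdh5 and Pecam1 among them, were detected in every mouse, with a summed level of 553 to 602 RPKM (reads per kilobase of gene length, scaled to the library total) on the control diet and 533 to 598 on the ketogenic diet. Markers of smooth muscle cells and pericytes summed to 582 to 618 and 561 to 622, so mural cell transcripts such as Acta2 and Rgs5 were measured in these CD31+ preparations too. Cdh5 (149 to 170 by mouse), Rgs5 (130 to 149) and Acta2 (127 to 144) lay near the highest RPKM that any gene of at least 1000 bases reached in a mouse (158 to 184), so these sums do not rank the cell types. Cardiomyocyte markers summed to 220 to 271 on the control diet and to 256 to 339 on the ketogenic diet (exact permutation p = 0.0159), with 10 of 10 fitted above 0 and none at 0 in every mouse. Platelet markers summed to 171 to 249 and 88.0 to 198 (exact permutation p = 0.0397, 0 of 4 above 0), and lymphocyte markers to 58.9 to 79.7 and 49.6 to 57.9 (exact permutation p = 0.00794, 3 of 6 above 0). These p-values were computed over 10 marker lists and are unadjusted. In bulk RNA, fewer cells of a type and less RNA per cell cannot be told apart.

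All 10 VEGF genes had reads in every mouse, and their levels spanned a wide range. By the deposited RPKM, averaged over the 10 mice, Nrp1 was highest at 157 ± 5.87 (SD, n = 10), followed by Pgf at 84.7 ± 4.41, Vegfc at 72.2 ± 6.79, Kdr at 62.5 ± 4.35 and Flt1 at 47.5 ± 1.79. Flt4 (19.6 ± 1.48) and Nrp2 (10.99 ± 1.42) followed. Vegfb (3.18 ± 0.539), Vegfd (1.51 ± 0.295) and Vegfa (0.982 ± 0.160) were the lowest. Thus, of the ligand genes, Pgf and Vegfc were at receptor-like levels in these cells, whereas Vegfa, the ligand that KDR mainly responds to, was at the bottom.

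**Figure D1:**
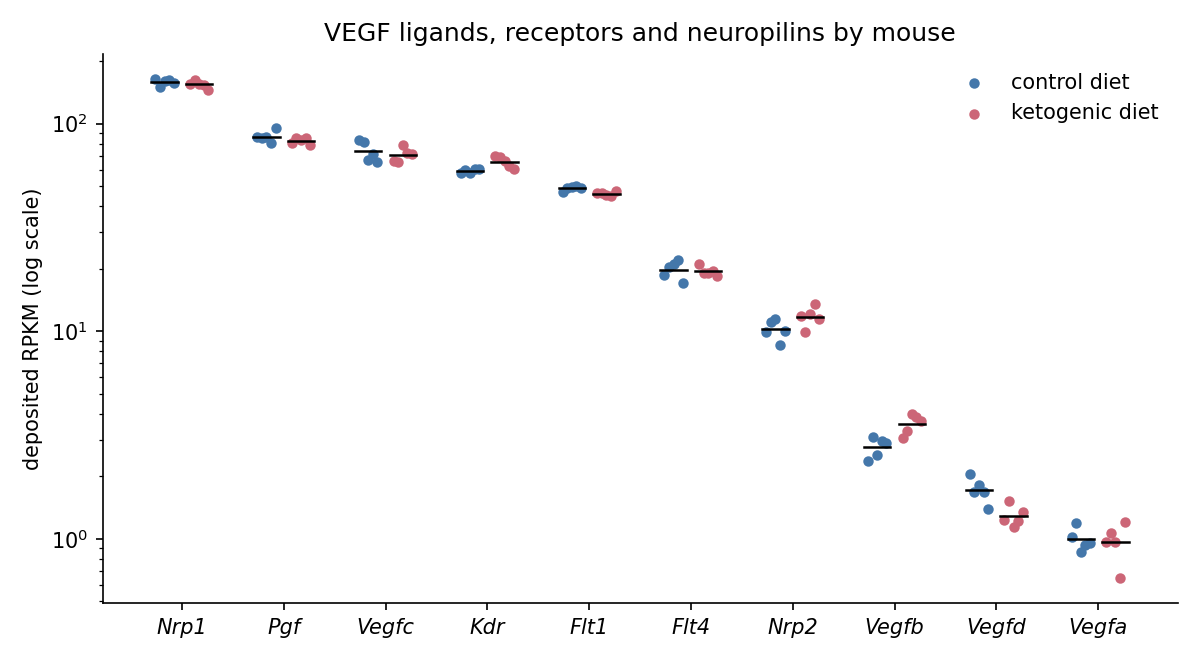
Deposited RPKM (log axis) of the 10 VEGF genes in each of the 5 control and 5 ketogenic mice, with bars at the diet means. The genes span from about 157 (Nrp1) to 0.982 (Vegfa), and the diets lie close together for most of them.

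Each of the 9 neighbouring pairs in this order differed within mice (exact sign-flip permutation test over 10 mice, adjusted p over 9 pairs at most 0.00977). The pairs and their direction were set by the mean RPKM of the same 10 mice, so these p-values are a description only. The higher gene was higher in 10 of 10 mice for 8 of the pairs, and Vegfc was above Kdr in 8 of 10. The order was the same on either diet. It did depend on the gene length behind the RPKM. The lengths in the deposited values were 11570 bases for Kdr, 16336 for Flt1 and 10734 for Vegfa, whereas the longest protein-coding transcripts in GENCODE M21 were 5924, 6895 and 3451 bases. With those transcript lengths, an alternative chosen after the data were seen, Nrp1 remained highest (257 RPKM), Kdr (122) and Flt1 (112) came next, above Pgf (64.4) and Vegfc (55.4), and Vegfa (3.06) stood above Vegfd (2.18).

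Reads on the most abundant of these genes came close to the number of positions at which a read can start. A gene of a given length offers 2 strands times its length of such positions. Of 22949 genes of at least 1000 bases, 3 had more reads than that in at least 1 mouse, and the highest share was 101.3%. Whether reads sharing a start position were counted once is not given in the sources used here.

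Nrp1 used between 89.4% and 92.5% of its positions in every mouse. Its reads lay between 10559 and 10928, so that the highest mouse was 3.49% above the lowest, while library totals spanned 16.8%. The coefficient of variation of Nrp1 reads was 1.099%, against 4.77% for the totals, and its variance within a diet was 1.098 times its mean. Nrp1 counts thus hardly moved with sequencing depth, and no gene of at least 1000 bases had reads clearly above its number of positions. Over all genes with a mean of at least 1000 reads, the same ratio of variance to mean had a median of 12.03 where under 10% of positions were used (1262 genes) and of 0.832 where over 75% were used (105 genes).

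**Figure D2:**
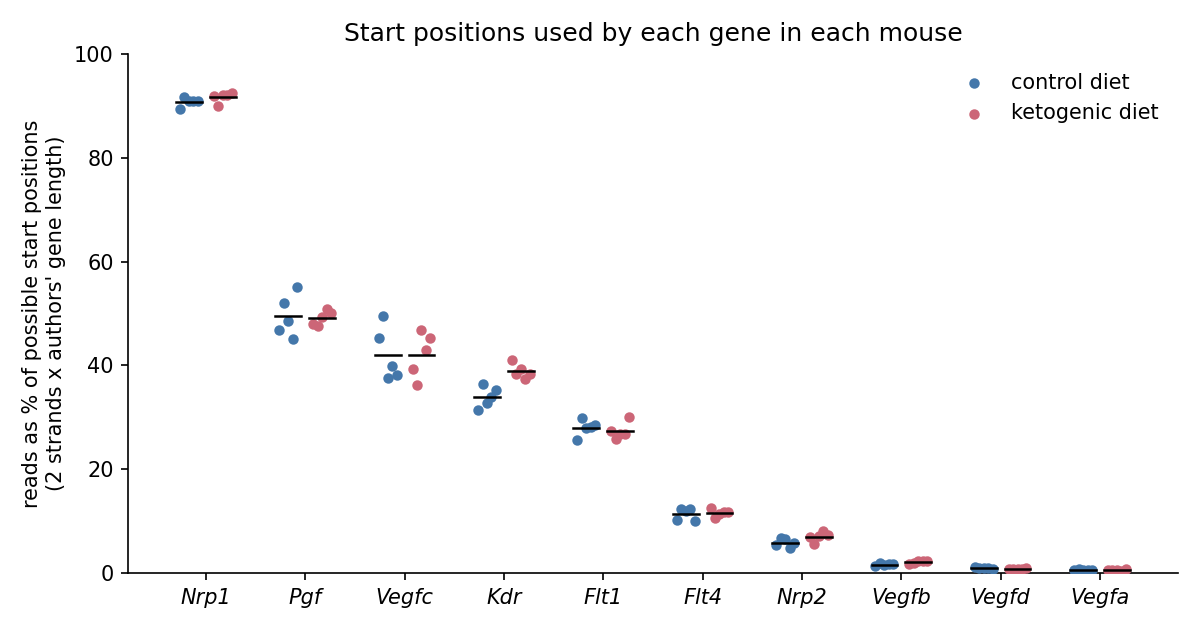
Reads of each VEGF gene as a percentage of its possible start positions (2 strands times the authors' gene length), 1 point per mouse, with bars at the diet means. Nrp1 lies between 89.4% and 92.5%, and Vegfa, Vegfb and Vegfd below 3%.

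Pgf used 49.3% of its positions on average, Vegfc 42.1%, Kdr 36.4%, Flt1 27.7%, Flt4 11.4% and Nrp2 6.43%. Measured against the longest protein-coding transcript, Kdr used 61.5% to 80.2% and Flt1 60.7% to 71.3%. Differences between the diets are therefore given below both as counted and, for Kdr, Flt1, their ratio and Nrp1, after a correction for shared start positions.

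None of the 10 genes was called different between the diets at an adjusted p under 0.05 by edgeR's quasi-likelihood test, where 213 of 15949 tested genes (1.34%) were called. All 10 passed the filter on low counts. At an unadjusted p under 0.05 there were 5 (Flt1, Kdr, Vegfb, Vegfd and Nrp2), against 17.8% of all tested genes. DESeq2, the tool named in the study's methods, called 2 of them, Flt1 and Kdr, where it called 5.11% of tested genes. The median log2 fold change of the 10 genes, ketogenic over control, was -0.05, beside -0.01 for all tested genes, with 3 above 0 and 7 below. The labels do not say whether the mice of a diet were housed or processed apart, so the p-values measure only the spread between these samples.

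**Figure D3:**
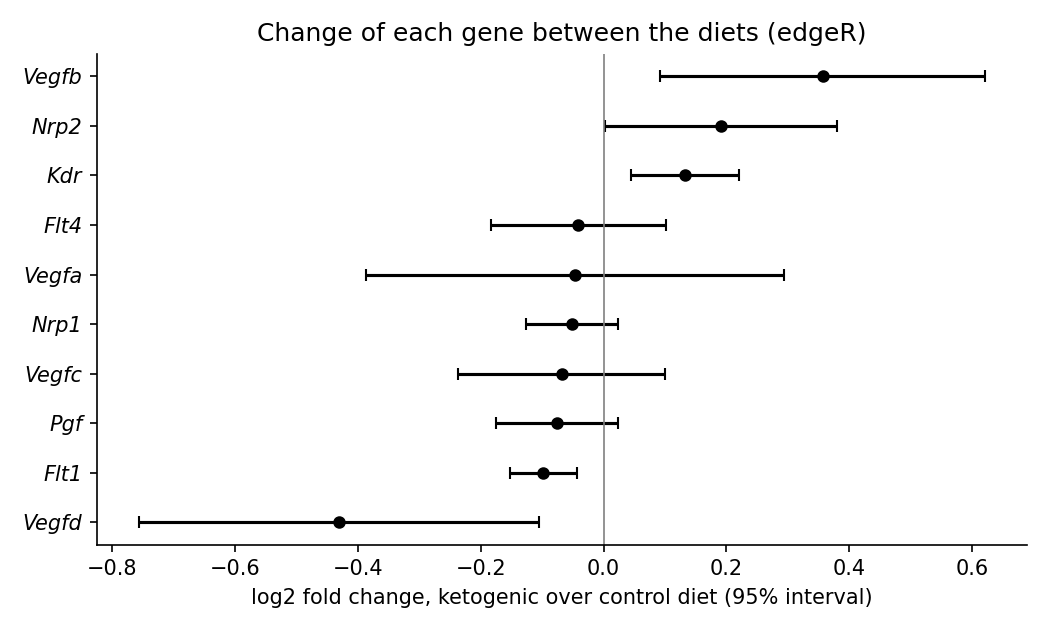
Log2 fold change (ketogenic over control diet) of each VEGF gene from edgeR, with its 95% interval. The intervals of Vegfb, Nrp2 and Kdr lie above 0, those of Flt1 and Vegfd below 0, and those of the other 5 genes span 0; none passed an adjusted p of 0.05.

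Among the ligands, Vegfb, which is best known from heart and other oxidative tissues and binds FLT1, had 71.3, 91.5, 75.6, 89.5 and 86.5 normalised reads in the control mice, and 90.8, 98.3, 118, 115 and 109 in the ketogenic mice (reads scaled to a common library size with edgeR's TMM factors). The ketogenic mice were the higher ones, and only ketogenic mouse 1 fell within the control range. The log2 fold change was 0.36 (SE 0.121, 95% interval 0.09 to 0.62, edgeR adjusted p = 0.158). With the summed cardiomyocyte marker score as a covariate it was 0.23 with an adjusted p of 0.687 (edgeR), and the part of cardiomyocyte RNA in this difference was not otherwise tested.

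Vegfd, a ligand of FLT4, had 71.3, 58.2, 63.1, 59.0 and 48.3 normalised reads on the control diet and 42.4, 52.3, 39.3, 41.8 and 46.5 on the ketogenic diet. Here 4 of the 5 ketogenic mice lay below every control mouse, and ketogenic mouse 2 lay within the control range. The log2 fold change was -0.43 (SE 0.149, 95% interval -0.76 to -0.11, edgeR adjusted p = 0.164), from 40 to 66 reads per mouse.

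Vegfa, Vegfc and Pgf did not pass the test either. Vegfa had 109 to 149 normalised reads on the control diet and 80.7 to 150.3 on the ketogenic diet, with a log2 fold change of -0.05 (95% interval -0.39 to 0.29, edgeR adjusted p = 0.906), an interval that holds changes from -23.5% to 22.6%. Vegfc, the main ligand of FLT4, had 1443 to 1843 and 1422 to 1732, with a log2 fold change of -0.07 (95% interval -0.24 to 0.10, adjusted p = 0.681 by edgeR). Pgf had 1503 to 1752 and 1444 to 1574.5, with -0.08 (95% interval -0.17 to 0.02, adjusted p = 0.411 by edgeR). For each of these 3 genes the diets overlapped.

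Among the receptors, Flt1 had 9036, 9284, 9432, 9648 and 9342 normalised reads on the control diet and 8825, 8797, 8592, 8493 and 8956 on the ketogenic diet. Every ketogenic mouse was below every control mouse, as for 4.34% of all tested genes in either direction. In the edgeR fit this was a log2 fold change of -0.10 (SE 0.0249, 95% interval -0.15 to -0.04), or -6.59%. Its adjusted p was 0.0734 with edgeR and 0.0249 with DESeq2. In deposited RPKM, which are scaled to the library total alone, the diets overlapped, at 47.0 to 50.1 on the control diet and 44.8 to 47.3 on the ketogenic diet.

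Kdr lay in the other direction. Its normalised reads were 7864, 8028, 7833, 8254 and 8213 on the control diet and 9375, 9286, 8911, 8386 and 8094 on the ketogenic diet. Ketogenic mouse 5 lay within the control range and the other 4 lay above it. Its log2 fold change was 0.13 (SE 0.0405, 95% interval 0.04 to 0.22), a change of 9.60%, with an adjusted p of 0.125 by edgeR and of 0.0478 by DESeq2. As counted, before scaling, Kdr had 7281 to 8420 reads on the control diet and 8629 to 9501 on the ketogenic diet, and these did not overlap. Such counts also carry the library totals, with a median of 11285700 on the control diet and 11837400 on the ketogenic diet. The share of genes without overlap was computed only for normalised reads, where Kdr did overlap.

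Where reads rise in proportion to transcripts, the ratio of Kdr to Flt1 reads needs no scaling between libraries and no gene length. Corrected for shared start positions, as given below, its difference between the diets depended on the length used. As counted, the ratio was 0.870, 0.865, 0.830, 0.855 and 0.879 in the control mice. In the ketogenic mice it was 1.06, 1.06, 1.04, 0.987 and 0.904. Hence every ketogenic mouse had more Kdr reads per Flt1 read than every control mouse, with ketogenic mouse 5 the closest to the controls. The means were 0.860 ± 0.0186 (SD, n = 5) and 1.01 ± 0.0659 (SD, n = 5). The difference of the mean log2 ratio was 0.23 (exact permutation test, two-sided, p = 0.00794, the smallest p that 5 mice against 5 allow). The ratio was chosen with earlier results of these data known, and no share over other gene pairs was computed. Its p is therefore a description only.

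**Figure D4:**
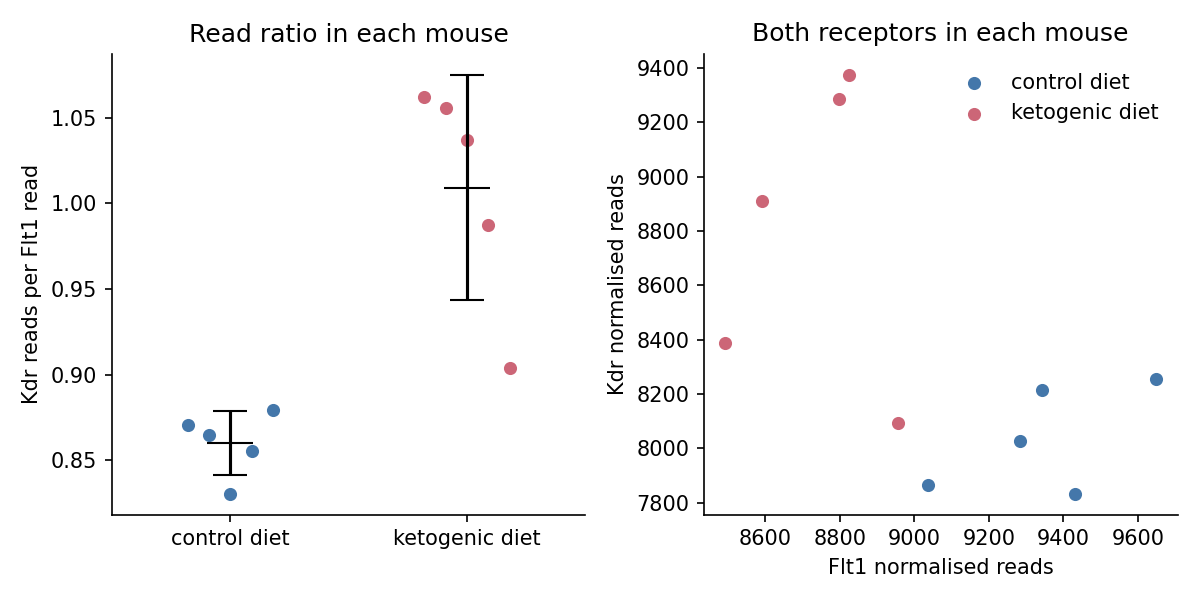
Left, Kdr reads per Flt1 read in each mouse, with mean and SD of 5 mice per diet (axis not starting at 0). Right, normalised reads of Kdr against Flt1 per mouse; ketogenic mice lie to the left of the control mice (Flt1 at most 8956 against at least 9036), and 4 of 5 lie above them.

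Corrected for shared start positions with the authors' gene lengths, the difference of the log2 ratio was 0.29, and with the longest coding transcripts, an alternative chosen after the data were seen, it was 0.45 (exact permutation p = 0.00794 for both). Leaving out any 1 mouse gave 0.21 to 0.27. With the mice paired by number across diets the exact sign-flip p was 0.0625, the smallest that 5 pairs allow. The sum of Kdr and Flt1 was 1485 ± 30.4 CPM (reads scaled to the library total) on the control diet and 1511 ± 48.4 on the ketogenic diet, which did not differ beyond the spread (exact permutation p = 0.325, n = 5 per diet). With the start-position correction by the authors' gene lengths, the edgeR log2 fold change was 0.18 for Kdr (adjusted p = 0.0881) and -0.11 for Flt1 (adjusted p = 0.102). When that cardiomyocyte score entered the edgeR fit, Kdr (0.16, adjusted p = 0.374) and Flt1 (-0.10, adjusted p = 0.385) kept the direction of their log2 fold changes.

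Flt4, the receptor for VEGF-C and VEGF-D, had 1968 to 2553 normalised reads on the control diet and 2096 to 2430 on the ketogenic diet, with a log2 fold change of -0.04 (95% interval -0.18 to 0.10, edgeR adjusted p = 0.786). The ketogenic mice lay within the control range. The lymphatic markers, Prox1 and Lyve1 among them, summed to 104 to 154 RPKM and 108 to 164 RPKM (exact permutation p = 0.333), and these ranges overlapped.

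Of the co-receptors, Nrp1 had 10320 to 11404 normalised reads on the control diet and 9957 to 11107 on the ketogenic diet, with a log2 fold change of -0.05 (95% interval -0.13 to 0.02, edgeR adjusted p = 0.464). Since its reads as counted lay within 3.49% of each other, these normalised values largely carry the library totals in inverse, and a difference between the diets was not detectable for Nrp1. With the start-position correction its log2 fold change was -0.0068 (edgeR adjusted p = 0.922). Nrp2, the co-receptor of FLT4 in lymphatic and venous endothelium, had 1751, 1946, 2017, 1528 and 1768 normalised reads on the control diet and 2071, 1726, 2118, 2370 and 1999 on the ketogenic diet. The ketogenic mice tended to the upper end, 3 of them above every control mouse, but the groups overlapped. The log2 fold change was 0.19 (SE 0.0868, 95% interval 0.0017 to 0.38, edgeR adjusted p = 0.276). Nrp2 overlaps the annotated genes Gm37121 on its own strand and Gm29083 on the other, and Nrp1 overlaps Mir1903. The strand setting of the counting is not given in the sources used here.

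The genes around these receptors were taken from 7 lists with 117 genes, of which 111 were tested. Of these, 1 was called by edgeR, in the lower direction, where 0.527% of all tested genes were called lower and 0.809% higher. At an unadjusted p under 0.05, 8 were higher and 13 lower, a share close to the 17.8% of all tested genes in either direction. The median log2 fold change of the 111 genes was -0.02, with 51 above 0 and 60 below, where 48.6% of all tested genes were above 0.

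**Figure D5:**
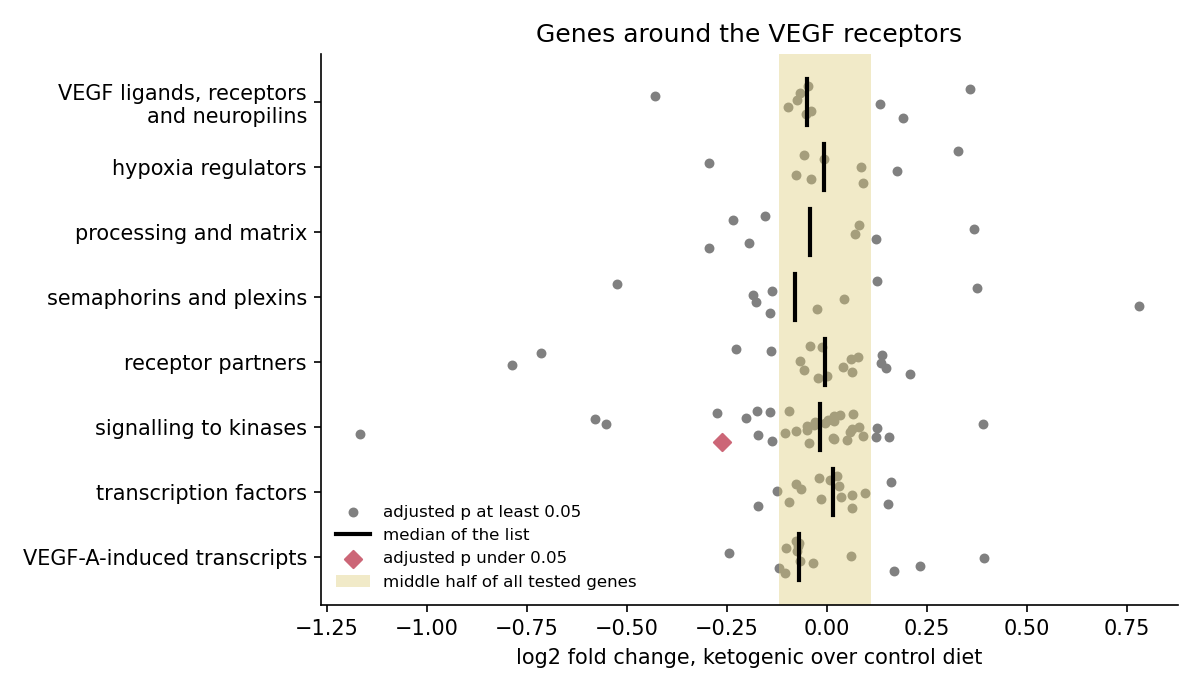
Log2 fold change (ketogenic over control diet) of the VEGF genes and of 7 lists of pathway genes, 1 point per gene, with the median of each list and the middle 50% of all tested genes shaded (-0.12 to 0.11). Nos3 (diamond, -0.26) is the only gene with an adjusted p under 0.05.

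The gene called was Nos3, which encodes endothelial nitric oxide synthase, the enzyme through which VEGF signalling raises vascular permeability and dilates vessels. It had 2259, 2279, 2055, 2361 and 2006 normalised reads on the control diet and 1966, 1821, 1725, 1776 and 1851 on the ketogenic diet. Every ketogenic mouse was below every control mouse, a separation that 4.34% of all tested genes showed in either direction. The log2 fold change was -0.26 (SE 0.0527, edgeR adjusted p = 0.0375). Leaving out 1 mouse at a time kept the call in 4 of 10 fits (edgeR adjusted p 0.0275 to 0.0908). The call was lost with the cardiomyocyte score, which partly coincides with diet, as a covariate (log2 fold change -0.14, edgeR adjusted p = 0.440).

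Nos3 was 1 of 36 tested genes of signalling from the receptors to kinases. Of the rest, Vav3, a guanine nucleotide exchange factor, had a log2 fold change of 0.39 (edgeR adjusted p = 0.104). Prkcb, a protein kinase C gene also abundant in B cells and platelets, had -1.17 (edgeR adjusted p = 0.174), with 116 ± 54.8 and 51.5 ± 33.9 normalised reads. The sums of the lymphocyte and platelet markers were lower on the same diet, with 3 of 6 and 0 of 4 markers above 0, and their part in the Prkcb difference was not tested. The signalling genes Mapk3 (0.02), Akt1 (-0.05) and Plcg1 (-0.09) were among those that passed no threshold.

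In the list of hypoxia regulators none of 9 was called. Hif1a, the oxygen-regulated subunit that induces Vegfa and Flt1, had 650 ± 49.6 and 815 ± 83.7 normalised reads. Its ketogenic mice (722 to 910) lay above its control mice (591 to 710), and 4.34% of all tested genes separated in either direction. The log2 fold change was 0.33 (SE 0.0789), with an adjusted p of 0.0658 by edgeR and 0.00533 by DESeq2. When the cardiomyocyte score entered the edgeR fit, it was 0.22 with an adjusted p of 0.516. Egln1, a prolyl hydroxylase that marks HIF subunits for degradation, had 0.18 (edgeR adjusted p = 0.235). Epas1, the HIF subunit most typical of endothelium, had -0.06 and Vhl 0.08, both inside the middle 50% of all tested genes.

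Of 8 tested genes for ligand processing and matrix binding, none was called. Furin, a protease that cleaves the VEGF-C and VEGF-D precursors, had a log2 fold change of -0.15 and Gpc1, a heparan sulphate proteoglycan, of 0.37 (edgeR adjusted p = 0.232 and 0.164). Ccbe1 and Adamts3, which activate VEGF-C, and Plg were too low to be tested, with at most 11 reads in any mouse. Among 10 tested semaphorins and plexins, the ligands and partners of neuropilins in guidance, none was called, and the median was -0.08. Plxnd1, the endothelial plexin, had -0.14 and Sema3g, an arterial semaphorin, -0.19 (edgeR adjusted p = 0.142 and 0.305).

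Of 18 partners of the receptors, phosphatases, integrins and trafficking proteins, 0 were called. Itgb3, the integrin beta chain that associates with KDR and is also the chain of the platelet fibrinogen receptor, had 968 ± 256 and 561 ± 146 normalised reads (log2 fold change -0.79, edgeR adjusted p = 0.0781). The platelet markers differed in the same direction, as given above, and their part in the Itgb3 difference was not tested. Ptpn11, which encodes the phosphatase SHP2, had 0.14 (edgeR adjusted p = 0.208), while Cdh5 and Ptprb, partners of KDR at junctions, had -0.04 and -0.01. Cdh5, at 149 to 170 RPKM, lay near the highest RPKM of any gene of at least 1000 bases in these libraries, so its value has the same limit as that of Nrp1.

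None of 16 transcription factors known to act on the receptor genes was called. Ets2 had a log2 fold change of 0.16 and Gata2 of -0.13 (edgeR adjusted p = 0.191 for both), and the endothelial ETS factors Erg (0.02), Fli1 (-0.02) and Ets1 (0.01) were near 0. Of 14 transcripts that VEGF-A induces in endothelial cells, none was called, 10 were below 0 and 4 above, with a median of -0.07. Nr4a1 (-0.08) was highest in control mouse 1 and lowest in ketogenic mouse 5 (5349 and 4523 normalised reads). The same held for Nrp1, and these mice had the smallest and the largest library total. Egr1 (-0.07) was also lowest in ketogenic mouse 5 (4693). How far the limit given for Nrp1 applies to these 14 transcripts was not tested. Rcan1, a calcineurin inhibitor among the earliest of these, had -0.08 and Nr4a2 -0.25 (edgeR adjusted p = 0.202 and 0.252).

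The genes whose levels ran most like those of Flt1, Kdr and Nrp1 over the 10 mice, by Pearson r of log2 CPM among all tested genes, are given as a description, since the mice share diets and library totals. For Flt1 they were Ptpn14 (r = 0.995), a tyrosine phosphatase, Osmr (0.941), the oncostatin M receptor, and Capn5 (0.939), a calpain. For Kdr they were Capn2 (0.954), another calpain, Igbp1 (0.922) and Bcl2l2 (0.909), an inhibitor of apoptosis. For Nrp1 they were Dazap2 (0.996), Aplp2 (0.995) and Selenop (0.995), which used 77.6%, 98.3% and 36.2% of their start positions. After removal of the diet means, 4 of these 9 genes were still among the closest 3 of their receptor. Kdr and Flt1 had r = -0.56 with each other over the 10 mice and 0.16 after removal of the diet means.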

How the data were processed

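RNA of CD31+ heart cells from 5 mice per diet was sequenced with SMART-Seq v4 libraries on an Illumina HiSeq. Per the labels, the submitters' processing notes name bcl2fastq 2.17.1.14, STAR 2.3, HTSeq 0.6.0 and the build mm10. The authors deposited raw counts per gene and, in a second table, RPKM per gene, which are reads per kilobase of gene length scaled to the library total. Those lengths were recovered as the ratio of counts to RPKM. The study's methods name DESeq2 for testing.

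Each mouse's diet came from its labels. Counts were tested with edgeR 4.0.16 (R 4.3.3): default filterByExpr, TMM factors, quasi-likelihood fit and F test, with Benjamini-Hochberg adjustment over all 15949 tested genes and calls at an adjusted p under 0.05. The standard error is the absolute log2 fold change over the square root of F. Single values were compared by exact permutation over the 252 regroupings of 5 and 5 mice, and gene levels within mice by exact sign flips. The fit was tested on simulated data with known changes. The start-position correction takes the reads expected had positions been drawn at random and counted once. Gene positions and overlaps are from GENCODE M21 (GRCm38). Promoters of the 10 genes, all matched, are from RefSeq (GRCm38.p6), and their motifs were counted on both strands.

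The members, the lists and the Kdr to Flt1 ratio were chosen with earlier results of these data known. Genes named were the 10 members, in each pathway list those called and the 2 with the smallest p of the rest, and the 3 most alike genes for Flt1, Kdr and Nrp1. Other genes of those lists that are named (Mapk3, Akt1, Plcg1, Epas1, Vhl, Cdh5, Ptprb, Erg, Fli1, Ets1, Ccbe1, Adamts3, Plg) were picked for their roles after the values were seen. Alternatives were DESeq2 1.42.0, limma 3.58.1 on log2(RPKM + 1) and log2(RPKM + 0.1), other scaling factors and count filters, a replicate block, a cardiomyocyte score, the start-position correction, and leaving out each mouse. Fibroblast, erythroid, macrophage and endocardial marker sums did not differ past a p of 0.05 (exact permutation p = 0.865, 0.317, 0.119 and 0.127). Replicate libraries differed by more than sampling noise, with a chi-square per gene of at least 4.31. 1 gene of a pathway list is not reported here.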

Additional observations from a re-analysis of the deposited data

How the results depend on the processing

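The 10 VEGF genes were refitted under 11 other settings and 10 fits that left out 1 mouse. Under these 21 settings Flt1, Kdr, Vegfb, Vegfc, Vegfd, Pgf, Nrp1 and Nrp2 kept their direction. As mice were left out, 3 small values moved by over 1.5 times, with ranges for Vegfc from -0.11 to -0.018, for Pgf from -0.097 to -0.041 and for Nrp1 from -0.069 to -0.024. Vegfa turned positive with the cardiomyocyte score as a covariate (log2 fold change 0.20), without control mouse 2 (0.03) and without ketogenic mouse 4 (0.070), and ranged from -0.13 to 0.070 as mice were left out. Flt4 turned to 0.0022 without control mouse 4 and ranged from -0.090 to 0.0022 as mice were left out. The number of VEGF genes called went from 0 to 2 with DESeq2 and was 0 in every fit that left out a mouse. Pathway genes called went from 1 to 4 with DESeq2 (Nos3, Hif1a, Itgb3 and Vav3) and to 0 with the covariate, and ranged from 0 to 3 as mice were left out. Genes called in all went from 213 to 815 with DESeq2 and 15 with the covariate, and ranged from 86 without control mouse 2 to 492 without ketogenic mouse 2. The causes were not tested. Of the 9 most alike genes, 4 stayed among the closest 3 on deviations from the diet means. The order of RPKM levels and its 9 tests held without any 1 mouse, with the start-position correction and with transcript lengths in the tests, although that last setting changed the order itself.

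Mice of the 2 diets share replicate numbers in the labels. Deviations from the diet means correlated between same-numbered mice at only -0.13 to 0.094, and no control mouse matched its own number best. No pairing by number was seen, but such correlations cannot settle whether the mice were paired by litter or processing. A replicate block called 113 genes, 0 pathway genes (Nos3 adjusted p = 0.0623, edgeR) and 0 VEGF genes, and the paired log2 ratio of Kdr to Flt1, 0.23, had an exact p of 0.0625.

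Depth limited Vegfa, Vegfb and Vegfd, with 40 to 165 reads per mouse, and Nrp1 reads were close to the number of start positions, whose part in its small spread was not tested.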
